A study of Mus musculus with 28 samples.

Results

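The Irx (Iroquois) and Pax (paired box) genes measured here were Irx1, Irx2, Irx3, Irx5, Pax2, Pax3, Pax5, Pax6, Pax7 and Pax8, which were listed by gene family. They are 10 of 20660 gene symbols named on the array, and each was represented by the probe with the highest mean level where a gene had several. Whole brains of male C57BL/6J mice at 3 weeks of post-natal age were cut into serial fractions, of 500 micron by the labels (the study's text gives a different thickness), and total RNA of each fraction was hybridised to 1 one-colour Agilent array. One untreated mouse was cut in the coronal plane (12 fractions, mouse 1), another in the horizontal plane (6 fractions, mouse 2) and a further one in the sagittal plane (10 fractions, mouse 3), so that mouse and plane cannot be told apart and no position was measured on more than 1 array. The last coronal array held fractions 12 and 13 together according to its label.

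Irx proteins are homeodomain transcription factors of the TALE class, whose genes lie in clusters and divide the embryonic neural tube into domains, with early roles in the midbrain, hindbrain and posterior forebrain. Pax proteins bind DNA through a paired domain. Pax3 and Pax7 mark the dorsal neural tube and the tectum, Pax2, Pax5 and Pax8 act at the boundary between midbrain and hindbrain and in inhibitory interneurons, and Pax6 acts in the cortex, the eye, cerebellar granule cells and olfactory bulb interneurons. In the RefSeq gene table (GRCm38.p6), Irx1, Irx2 and Irx4 were neighbours on chromosome 13 and Irx3, Irx5 and Irx6 on chromosome 8, with 0 other protein-coding genes between the genes of either cluster.

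Promoter sequences are shown for Irx2 and Irx3, whose levels moved together from different chromosomes, and for the 2 annotated starts of Pax6, whose profile differed from theirs. Each line holds the 250 bases before an annotated transcription start, 5′ to 3′ on the gene's strand, from RefSeq (GRCm38.p6, a later build than the mm9 of the array annotation). The positions are chr13:72628570-72628819 (plus strand) for Irx2, chr8:91801655-91801904 (minus strand) for Irx3, chr2:105668646-105668895 (plus strand) for the first Pax6 start and chr2:105682213-105682462 (plus strand) for the second. Capitals mark TAAT on either strand (read as ATTA on the other), the core that many homeodomains bind.
Irx2: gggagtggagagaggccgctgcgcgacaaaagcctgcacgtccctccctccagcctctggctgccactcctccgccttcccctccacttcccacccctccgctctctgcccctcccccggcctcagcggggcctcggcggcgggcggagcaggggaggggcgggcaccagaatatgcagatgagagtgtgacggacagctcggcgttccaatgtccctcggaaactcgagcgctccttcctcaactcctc
Irx3: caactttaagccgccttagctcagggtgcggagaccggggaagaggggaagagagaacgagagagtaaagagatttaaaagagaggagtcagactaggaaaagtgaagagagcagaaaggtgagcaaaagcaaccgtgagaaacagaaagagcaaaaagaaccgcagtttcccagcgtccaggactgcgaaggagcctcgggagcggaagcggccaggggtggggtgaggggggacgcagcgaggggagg
Pax6 first start: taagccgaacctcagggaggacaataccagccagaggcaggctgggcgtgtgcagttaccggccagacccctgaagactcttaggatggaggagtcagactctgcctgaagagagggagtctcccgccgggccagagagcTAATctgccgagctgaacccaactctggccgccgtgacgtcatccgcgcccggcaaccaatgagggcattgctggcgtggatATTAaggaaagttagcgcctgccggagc
Pax6 second start: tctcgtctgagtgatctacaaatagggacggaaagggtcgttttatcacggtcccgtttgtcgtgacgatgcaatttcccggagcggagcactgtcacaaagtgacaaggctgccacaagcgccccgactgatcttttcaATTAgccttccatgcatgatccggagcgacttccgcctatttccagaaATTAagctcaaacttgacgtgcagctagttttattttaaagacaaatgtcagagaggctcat
TAAT stood 2 times in each of the Pax6 windows and 0 times in the Irx2 and Irx3 windows. Of 32851 promoter windows of this length, 54.9% held it, so both states were common. The share of G and C was 68.4% for Irx2, 56.0% for Irx3, and 60.8% and 47.6% for the Pax6 starts, against a median of 52.4% over all windows. The arrays read the transcript and not its start, so no level below belongs to a single one of the Pax6 windows. Of the 10 genes, 7 had a promoter in the table used.

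The level of a gene is given as log2 of the background-subtracted signal relative to the array's 75th percentile, so 0 is the 75th percentile itself. The scanner software marks a probe as well above background or not, and a fraction without this mark gives only an upper bound for the level. Levels were compared between fractions of 1 probe, never between genes. The number of arrays on which a gene was well above background was 28 of 28 for Irx1 and Pax6, 21 for Pax3, 19 for Irx3, 18 for Irx2, 16 for Irx5, 10 for Pax7, 9 for Pax8, 7 for Pax2 and 5 for Pax5. In bulk RNA, fewer cells of a type and less RNA per cell cannot be told apart.

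Landmark genes gave the order of the fractions. In the coronal series the mean level of 3 hindbrain Hox genes was highest in fraction 1, cerebellar granule cell genes in fraction 2, Purkinje cell genes in fraction 3, serotonin neuron genes in fraction 4, hypothalamic genes in fraction 7, striatal genes in fraction 8, cortical genes in fraction 9 and olfactory bulb genes in fraction 12, which is caudal to rostral. Horizontal fraction 1 was highest for cortical and fraction 6 for hypothalamic genes, which is dorsal to ventral. The mean level of serotonin neuron genes was highest in sagittal fraction 5 and that of dopamine neuron genes in fraction 6, at the midline. Of the dopamine neuron genes, Slc6a3 and Th were highest in fraction 6 and Pitx3 in fraction 1. The side on which the sagittal numbering began was not given. The 75th percentile of the processed signal ranged from 135 (sagittal fraction 1) to 574, and 24822 to 34240 probes per array were well above background. Sagittal fraction 9 and horizontal fraction 6 stood apart in raised dim probes, with values given beside Pax2 and Pax5.

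Position along each axis was tested with limma, which fitted a natural cubic spline along the fractions to 32364 probes that were detected in all 3 series (marked as well above background on 1 or more arrays in every plane), with Benjamini-Hochberg adjustment and a threshold of 0.05. The error is the scatter of neighbouring fractions about the curve, since there were no replicates. Of the 10 genes, 8 entered the test; Pax2 and Pax5 did not, because they were well above background in 0 of 12 coronal fractions. In the coronal series 7 of the 8 passed, while 33.7% of all tested probes did. All 7 had the highest fitted value in fractions 1 to 6, while 13.4% of all probes both passed and had it there. These were 4324 of the 10910 probes that passed. In the horizontal series 5 of the 8 passed (15.8% of all probes). All 5 had their highest fitted value in fractions 3 to 5, while 4.71% of all probes both passed and had it there. These were 1523 of the 5115 probes that passed. In the sagittal series 4 of the 8 passed (14.7% of all probes). All 4 had their highest fitted value in fractions 4 to 7, while 4.54% of all probes both passed and had it there. These were 1469 of the 4767 probes that passed. The horizontal count was 2 without fraction 1 (2213 of 32364 probes were then called) and 0 without fraction 3 or fraction 4, where 0 probes were called, with 5 of the 8 genes at an unadjusted p under 0.05 each time. The sagittal count was 0 without fraction 1, where 0 probes were called (5 of the 8 genes at an unadjusted p under 0.05), and 2 without fraction 4, 5 or 6 (2085, 2588 and 2020 probes called), while the coronal count stayed at 7 without any single fraction. The median range of the fitted curve over the 8 genes was 5.02 log2 units in the coronal, 2.38 in the horizontal and 3.45 in the sagittal series, beside 0.90, 0.74 and 1.06 over all tested probes. These ranges use measured signals throughout, also in fractions not well above background, so they describe the curves and are not fold changes; in the coronal series 6 of the 8 genes had such fractions.

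**Figure D1:**
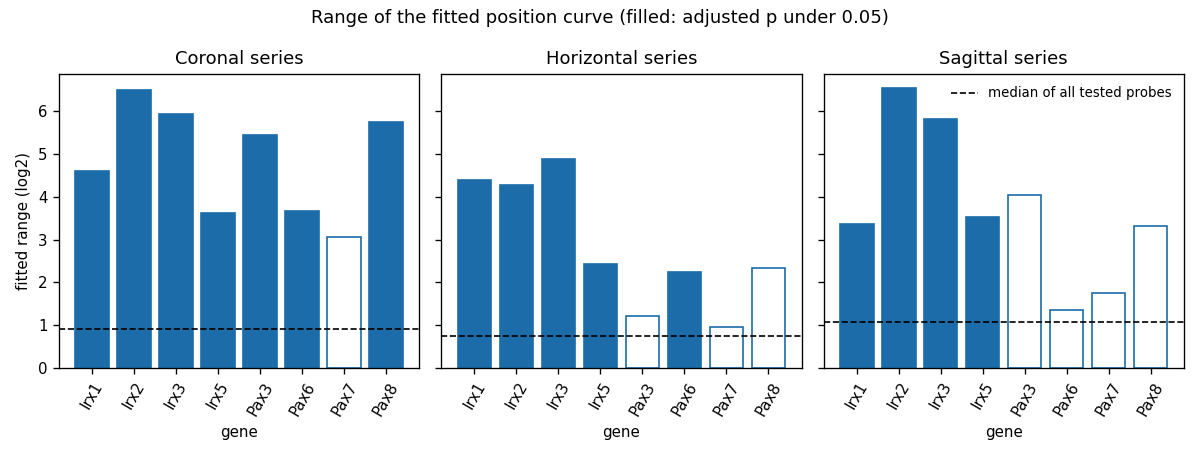
Height of the fitted position curve (highest minus lowest fitted value, log2) for each of the 8 tested genes in the coronal, horizontal and sagittal series. Filled bars passed the limma test at an adjusted p under 0.05, and the dashed line is the median over all tested probes (0.90, 0.74 and 1.06). The curves also run through signals not well above background, so the bars are not to be ranked between genes; the coronal panel has 7 filled bars, the horizontal 5 and the sagittal 4.

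The Irx genes were high in the caudal coronal fractions, 1 to 5 for Irx1, Irx2 and Irx3 and 1 to 4 for Irx5, and fell towards the front of the brain. Irx1 was well above background in all 12 coronal fractions, with a lowest level of -2.86 in fraction 12, a median of 0.36 and a highest level of 2.00 in fraction 4. It stayed between 1.68 and 2.00 in fractions 1 to 4, passed through 1.14, 0.64 and 0.08 in fractions 5, 6 and 7, and lay between -2.86 and -1.53 in fractions 8 to 12. The highest fraction was 29.0-fold above the lowest (adjusted p = 4.9e-05, limma). Fractions 2, 3 and 4 lay within 1 residual SD (0.30) of the highest value, so their order is not resolved.

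Irx2 was well above background in coronal fractions 1 to 7 and in none of fractions 8 to 12. Its level was -0.75, -0.28, -0.19, 0.62, -0.22, -1.41 and -2.67 in fractions 1 to 7, with a single highest value in fraction 4. Fraction 4 was at least 36.6-fold above fraction 12 (adjusted p = 0.000157, limma), where the bound sets the dim fraction to the lowest signal that was well above background on that array, or to its own signal where that was higher, as in every "at least" below. Irx2 was the gene of the family in which fraction 4 stood more than 1 residual SD (0.69) above every other coronal fraction.

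Irx3 had the same 7 fractions well above background. Its levels in fractions 1 to 4 were -0.27, 0.11, 0.04 and 0.16, and fractions 2 to 4 lay within 1 residual SD (0.42). It then read -0.72, -1.49 and -2.76 in fractions 5 to 7, and fraction 4 was at least 26.7-fold above fraction 12 (adjusted p = 4.9e-05, limma). Irx5 was well above background in coronal fractions 1 to 6, at levels from -3.76 to -2.43. It read -3.48 and -3.76 in fractions 5 and 6, while dim fraction 11 was bounded only at -3.38. Neither was therefore shown to be higher than fraction 11. The highest Irx5 level, in fraction 4, was at least 4.43-fold above fraction 12 (adjusted p = 0.000231, limma), and fractions 1 to 4 did not differ beyond 1 residual SD (0.41). In the same coronal fractions 1 to 4 the 3 Purkinje cell genes had mean levels of 4.48, 5.29, 5.35 and 3.41, against -1.86 to -0.39 further forward, and the 4 cerebellar granule cell genes 1.76 to 3.97, against -3.62 to -1.98. Their part in the Irx profiles was not tested.

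**Figure D2:**
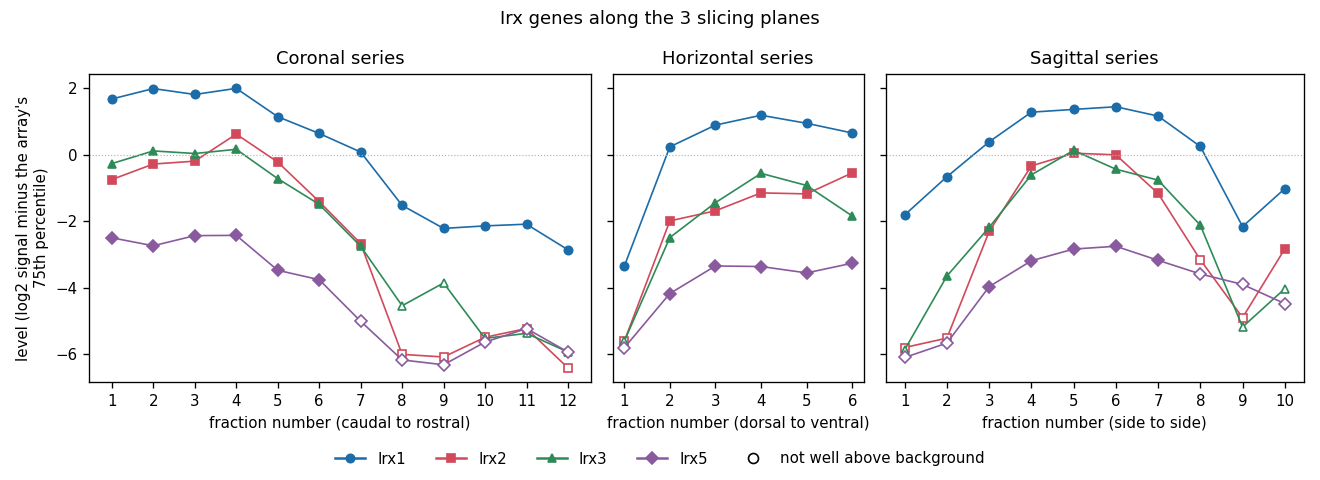
Level of Irx1, Irx2, Irx3 and Irx5 (log2 signal relative to the array's 75th percentile) against fraction number in the coronal, horizontal and sagittal series, 1 array per point. Filled points were well above background and open points were not. Irx1, Irx2 and Irx3 are high in coronal fractions 1 to 5 and Irx5 in fractions 1 to 4. All 4 genes are well above background in sagittal fractions 4 to 7, and Irx1, Irx2 and Irx3 are low in horizontal fraction 1.

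From dorsal to ventral, Irx1, Irx2 and Irx3 were low in the most dorsal fraction. Irx1 read -3.36 in horizontal fraction 1 and 0.24 to 1.19 in fractions 2 to 6, with its highest level in fraction 4 (23.4-fold, adjusted p = 0.0313, limma). Irx2, Irx3 and Irx5 were not well above background in horizontal fraction 1 and were well above it in the other 5 fractions. Irx2 was highest in fraction 6 (-0.55, at least 8.53-fold above fraction 1, adjusted p = 0.0427, limma), and Irx3 in fraction 4 (-0.56, at least 8.45-fold above fraction 1, adjusted p = 0.0171, limma). Irx5 lay between -4.18 and -3.26 in fractions 2 to 6 (adjusted p = 0.0305, limma), and fraction 1 was bounded only at -3.64, inside that range, so Irx5 was not shown to be lower there. The fit used its measured signal, and fractions 3 to 6 did not differ beyond 1 residual SD (0.37). Scaled to the array median, Irx2 and Irx5 were highest in horizontal fraction 4 and not 6. With 1 spline degree of freedom fewer none of these 4 calls held (limma adjusted p from 0.272 to 0.467). Beyond the fractions named above, Irx2 was also lost with the filter applied to this series alone (0.0521) and without fraction 5 (0.0519) or 6 (0.0637), Irx1 without fraction 6 (0.0539), and Irx5 with normexp (0.249) and without fraction 2 (0.0566). Cortical landmark genes were highest in horizontal fraction 1, and the mean level of the cerebellar granule cell genes was lowest there (-3.15, against -1.15 to 2.67 in the other fractions).

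From side to side, the Irx genes were highest at the midline. For Irx5 the bound in fraction 9 was -3.03, within its central levels of -3.19 to -2.76, so it was not shown to be lower there. Irx1 ranged from -2.16 in sagittal fraction 9 to 1.44 in fraction 6, with a median of 0.32, a 12.2-fold span (adjusted p = 0.0200, limma). Irx3 was highest in fraction 5 at 0.13, at least 15.8-fold above fraction 1 (adjusted p = 0.00953, limma). Irx2 was highest in fraction 5 at 0.05, at least 34.5-fold above fraction 2 (adjusted p = 0.0259, limma). Another Irx2 probe, well above background on 12 arrays and with an r of 0.81 to the first, was highest in fraction 6 and did not pass in this series (adjusted p = 0.108, limma), while it passed in the coronal (0.0419) and horizontal series (0.0330). Irx5 was highest in fraction 6 at -2.76, at least 4.95-fold above fraction 2 (adjusted p = 0.00953, limma), and in fraction 9 with normexp background correction. Irx1 read 1.36 and 1.44 in the central fractions 5 and 6, and 1.28 and 1.16 in fractions 4 and 7. Irx2 read -0.34 and -1.17 in fractions 4 and 7, and Irx3 0.13 and -0.44 in fractions 5 and 6. Beyond the left-out fractions named above, Irx1 was lost with array-median (0.0593) and quantile scaling (0.0888), Irx2 with quantile scaling (0.0598), normexp (0.0901), the slide term (0.0576) and without fraction 7 (0.0595), and Irx5 with normexp (0.137); on 1 slide only none of the 4 passed (0.555 each). The 3 hindbrain landmark genes had mean levels of -1.73 to -1.13 in fractions 4 to 7 and of -6.67 to -3.64 elsewhere, and the 5 hypothalamic genes 2.06 to 3.06 against -3.40 to 1.05; their part in the Irx profiles was not tested. The flanks did not mirror each other, since Irx2 was well above background in fraction 10 (-2.83) and not in fraction 1, and Irx1 read -0.66 in fraction 2 and -2.16 in fraction 9.

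Over the 28 arrays, Irx1 and Irx3, which lie on different chromosomes, had a Pearson r of 0.97, and the correlation was 0.98, 0.98 and 0.99 within the coronal, horizontal and sagittal series. Irx1 and Irx2, neighbours on chromosome 13, had an r of 0.95, and Irx3 and Irx5, neighbours on chromosome 8, an r of 0.90. The third gene of each cluster was less like its neighbours. Irx4 had an r of 0.30 with Irx1 and 0.35 with Irx2 over 27 arrays. Irx6 had an r of 0.77 with Irx3 and 0.68 with Irx5. Among Irx1, Irx2, Irx3 and Irx5, the 4 pairs from different clusters ran from 0.90 to 0.97. These values describe arrays that share tissue, depth and scaling, and dim fractions enter with their measured signal. Beyond the family, the symbols most like them were Trf, the iron carrier transferrin, for Irx1 (0.94) and Irx3 (0.96), Esrrb, an orphan nuclear receptor, for Irx3 (0.96), and Grin3b, an NMDA receptor subunit, and Lhx5, a LIM-homeodomain factor, for Irx5 (both 0.91).

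Among the other genes of both families, Irx6, the third gene of the chromosome 8 cluster, was well above background on 20 arrays, and its highest coronal level (-1.12 in fraction 4) was at least 9.70-fold above that of fraction 12 (adjusted p = 0.0124, limma), and it did not pass in the horizontal (0.405) or sagittal series (0.360). Irx4 was well above background on 26 arrays and was not tested because its spot was an outlier on 1 coronal array. It read -0.87 in coronal fraction 2 and between -3.79 and -1.86 in the other measured coronal fractions. Pax1 and Pax4 were well above background on 0 arrays and Pax9 on 2, horizontal fraction 6 (-2.73) and sagittal fraction 9 (-2.42), where Pax2 and Pax5 were also well above background.

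Pax3 was highest in the hindmost 3 coronal fractions. It read 0.04, 0.30 and 0.07 in fractions 1, 2 and 3, which did not differ beyond 1 residual SD (0.59), and then -0.80, -2.35 and -3.18 in fractions 4, 5 and 6. Further forward it was well above background in fraction 9 alone (-3.80). The highest fraction was at least 27.9-fold above fraction 12 (adjusted p = 0.000255, limma). The cerebellar granule cell genes had their highest mean levels in the same 3 fractions (3.00, 3.97 and 3.96, with 4 of 4 well above background) and fell to -3.62 in fraction 8 with 2 of 4 well above background; the part of this tissue in the Pax3 profile was not tested.

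Pax3 did not pass in the horizontal or sagittal series. Its horizontal levels had a median of -1.32 and were lowest in fraction 1 (-2.39), with the highest, fraction 3, at 2.62-fold above it (adjusted p = 0.117, limma), so no horizontal trend was called. In the sagittal series Pax3 was well above background in fractions 2 to 9, and fractions 3 to 9 all lay within 1 residual SD (0.96) of the highest. That was -0.74 in fraction 9, at least 8.64-fold above fraction 1 (adjusted p = 0.0676, limma). With array-median scaling the highest was fraction 3. Another Pax3 probe was highest in the same coronal, horizontal and sagittal fractions (2, 3 and 9). The symbol most like Pax3 over the 28 arrays was Skor1, a transcriptional corepressor, at an r of 0.94, followed by Mreg (0.91) and Jaml (0.90).

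Pax7, the close relative of Pax3, had a narrow profile. It was well above background in coronal fractions 4, 5 and 6 alone, at -2.04, -2.49 and -4.29, and not in the other 9. Fraction 4 was at least 5.95-fold above fraction 3, its caudal neighbour, so the step lay between adjacent fractions. The smooth curve did not call this profile (adjusted p = 0.141, limma). With 2 more spline degrees of freedom, an alternative chosen after the data were seen, limma again called 7 of the 8 genes (36% of all probes) and Pax7 had an adjusted p of 0.0746. Pax3 and Pax7 thus had their highest coronal levels in different fractions, 2 and 4, and this difference was not tested.

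In the horizontal series Pax7 was well above background in fractions 2, 3 and 6 (-3.33, -4.03 and -2.99; adjusted p = 0.487, limma), and median or quantile scaling put the highest in fraction 2 and not 6. In the sagittal series it was well above background in fractions 3 to 6, with its highest level at the midline, -2.35 in fraction 5 and -3.00 in fraction 6 (adjusted p = 0.287, limma), although normexp correction put the highest in fraction 9. Among named genes detected on at least 6 arrays, Tal1, a bHLH factor of midbrain GABAergic neurons, had an r of 0.81 with Pax7, and Chrna6, a nicotinic receptor subunit, an r of 0.69. A transcript of unknown function, 4930412O13Rik, had an r of 0.82. Within the coronal, horizontal and sagittal series the r of Pax7 with Chrna6 was 0.82, 0.35 and 0.64. With Tal1 it was 0.82, 0.70 and 0.75, and with 4930412O13Rik 0.91, 0.57 and 0.71.

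**Figure D3:**
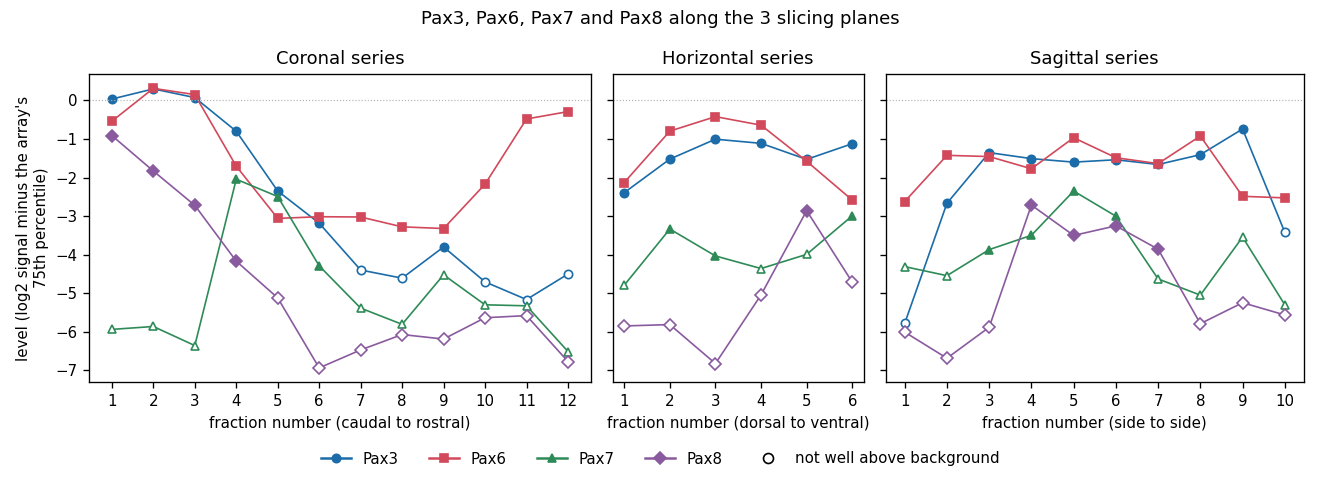
Level of Pax3, Pax6, Pax7 and Pax8 (log2 signal relative to the array's 75th percentile) against fraction number in the coronal, horizontal and sagittal series, 1 array per point. Filled points were well above background and open points were not; Pax6 is high at both coronal ends, Pax7 rises above background in coronal fractions 4 to 6, and Pax8 falls from coronal fraction 1.

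Pax8 fell in steps from the caudal end. Its level was -0.91, -1.83, -2.72 and -4.17 in coronal fractions 1 to 4, and the 8 fractions further forward were not well above background. Fraction 1 stood more than 1 residual SD (0.63) above the rest and was at least 14.6-fold above fraction 5 (adjusted p = 0.000392, limma; 0.0950 with the slide as an added term, where it no longer passed). In the sagittal series it was well above background in the 4 central fractions, 4 to 7 (-2.71, -3.50, -3.25 and -3.86; adjusted p = 0.132, limma). In the horizontal series it was well above background in fraction 5 alone (-2.86; adjusted p = 0.339, limma).

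The 3 symbols most like Pax8 over the 28 arrays were Hox genes, which set segment identity in the embryonic hindbrain: Hoxa2 (r = 0.95), Hoxb4 (0.94) and Hoxb2 (0.93). Pax8 and each of them were well above background together on 9 arrays. The 3 hindbrain landmark genes were all well above background in coronal fractions 1 and 2, where their mean levels were 2.07 and 0.88, and 0 of them were in fractions 6 to 12. Their part in the Pax8 profile was not tested.

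Pax6 had high levels at both coronal ends. It was well above background in all 28 arrays. In the coronal series it read -0.54, 0.31 and 0.15 in fractions 1 to 3, fell to -1.70 in fraction 4, lay between -3.32 and -3.02 in fractions 5 to 9, and rose again to -2.17, -0.48 and -0.29 in fractions 10 to 12. Fraction 2 was 12.4-fold above fraction 9 (adjusted p = 0.00362, limma; 0.233 with the slide as an added term, where it no longer passed), and fraction 12 lay within 1 residual SD (0.69) of fraction 2. The grouping into ends and middle was read from these same levels and was not tested. Cerebellar granule cell genes were highest in fraction 2 (mean level 3.97, 4 of 4 well above background) and olfactory bulb genes in fraction 12 (mean level 4.68, 4 of 4 well above background), and their part in the Pax6 profile was not tested.

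From dorsal to ventral, Pax6 was highest in fraction 3 (-0.42) and lowest in fraction 6 (-2.58), a 4.48-fold span with a median of -1.19 (adjusted p = 0.0204, limma; 0.870 with 1 spline degree of freedom fewer). From side to side it ranged from -2.62 in fraction 1 to -0.92 in fraction 8, a 3.25-fold span that did not pass (adjusted p = 0.203, limma), and the highest was fraction 5 with median or quantile scaling. The symbols most like it were Btg1, an antiproliferative factor (r = 0.95), H3f3b, a histone H3.3 gene (0.94), and Wnt7a, a secreted Wnt ligand (0.93). Another Pax6 probe, well above background on 10 arrays, had an r of 0.67 with the first and did not pass in the coronal series (adjusted p = 0.271, limma).

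Pax2 and Pax5 were well above background in 0 of 12 coronal fractions, where Pax2 measured from -6.42 to -3.89 and Pax5 from -7.06 to -5.27. In the sagittal series both were highest in fraction 9, Pax2 at -1.88 and Pax5 at -1.95. Pax2 was also well above background in sagittal fractions 3, 4 and 5 (-4.73, -5.50 and -4.45) and Pax5 in fraction 2 (-4.90). The median sagittal level was -5.28 for Pax2 and -6.31 for Pax5, and fractions 8 and 10 on either side were not well above background for either gene. In the horizontal series Pax2 was well above background in fractions 1, 2 and 6 (-2.61, -4.27 and -2.62) and Pax5 in the same 3 (-3.25, -4.31 and -2.67).

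The share of raised dim probes differed between the arrays on which these 2 genes were well above background. Of 17843 probes that were not well above background in any coronal fraction, 15.7% were well above it in sagittal fraction 9, 13.5% in horizontal fraction 6 and 8.66% in horizontal fraction 1. Sagittal fraction 4 had 9.23%, and the other arrays had from 1.47% to 6.82%. Among these others were horizontal fraction 2 (3.11%), where both genes were well above background, sagittal fractions 3 and 5 (6.82% and 2.52%), where Pax2 was, and sagittal fraction 2 (4.95%), where Pax5 was. In sagittal fraction 9 the 75th percentile of the signal was 176, the lowest of its series after fraction 1. In horizontal fraction 6, 6 of 6 pituitary hormone genes were well above background, with a mean level of 0.20 against -4.59 to -3.99 in the other horizontal fractions. The part of these features in the Pax2 and Pax5 levels was not tested. The symbols most like Pax2 were Gvin1 (r = 0.85), Tex36 (0.84) and Scd3 (0.84). The r with Gvin1 was 0.98 in the horizontal and 0.95 in the sagittal series. It was 0.54 in the coronal series, where Pax2 was never well above background. The other probe of Pax2 was well above background on 0 arrays and that of Pax5 on 1.

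**Figure D4:**
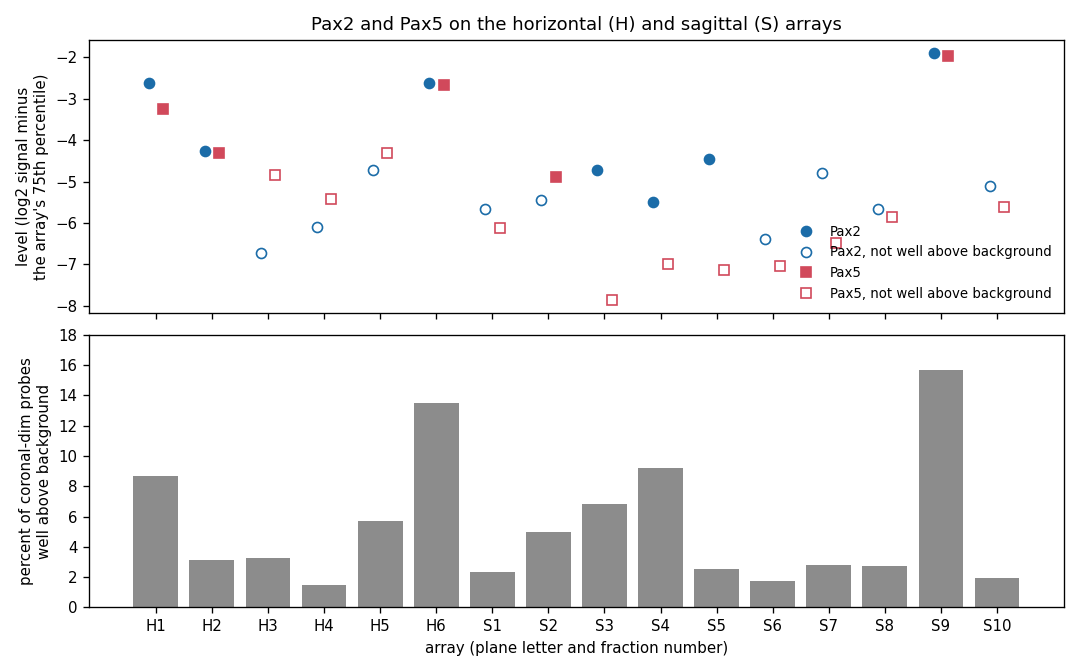
Upper panel, level of Pax2 and Pax5 (log2 signal relative to the array's 75th percentile) on the 6 horizontal (H) and 10 sagittal (S) arrays, filled where well above background. Lower panel, percent of the 17843 probes dim in every coronal fraction that were well above background on the same array; the 3 arrays with the highest Pax2 levels, S9, H1 and H6, stand at 15.7%, 8.66% and 13.5%.

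Genes that act with Irx and Pax factors in patterning were counted from lists by role. Of the midbrain-hindbrain boundary genes, 4 of 6 tested passed in the coronal series, 3 in the horizontal and 1 in the sagittal, where 33.7%, 15.8% and 14.7% of all probes did, and the median coronal fitted range was 2.13 beside 0.90 over all probes. In the coronal series 3 of the 4 had their highest fitted value in fractions 1 to 6, as did 4324 of the 10910 probes that passed. The sagittal 1 of 6 is near the share of all probes. En2, a homeodomain factor of the midbrain and cerebellum, was highest in coronal fraction 2 (4.43) and Otx2, a factor of the forebrain and midbrain that is also strong in choroid plexus, in fraction 3 (2.43). Gbx2, which borders Otx2 in the embryo, was highest further forward, in fraction 7 (-0.71), and did not pass (adjusted p = 0.141, limma). Wnt1 passed (adjusted p = 0.0278, limma) and was highest in rostral fraction 10 (1.53).

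Of the midbrain and hindbrain neuron specification genes, 11 of 17 tested passed in the coronal series (33.7% of all probes). Of these, 10 had the highest fitted value in fractions 1 to 6, as did 4324 of the 10910 probes that passed. The median coronal fitted range was 3.23. In the horizontal series 4 of the 17 passed (23.5%, against 15.8% of all probes) and in the sagittal 3 (17.6%, against 14.7%), shares near those of all probes. Gata3, a zinc finger factor of inhibitory neurons, was highest in fraction 4 (0.23), as was Phox2a of the same list. Irx1, Irx2, Irx3, Irx5 and Pax7 were also highest in that fraction. Of the forebrain patterning genes, 6 of 8 passed in the coronal series (33.7% of all probes) and 1 of these had its highest fitted value in fractions 1 to 6, with a median fitted range of 4.73, and 3 of 8 passed in each of the horizontal and sagittal series (37.5%, against 15.8% and 14.7% of all probes). Of the TALE partners, 8 of 11 passed in the coronal series (33.7% of all probes), 3 in the horizontal (15.8%) and 4 in the sagittal series (14.7%), and 1 of the 8 had its highest fitted value in fractions 1 to 6. That gene was Meis1, highest in fraction 2 (3.39), and Meis2 was highest in fraction 12 (5.52).

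Arrays of neighbouring fractions shared a slide, so slide and position were partly confounded. With the slide as an added term, limma called 5 of the 8 genes in the coronal series (0.745% of all probes), and the 5 were the Irx genes and Pax3, with adjusted p from 0.0232 to 0.0287; Pax8 (0.0950) and Pax6 (0.233) no longer passed. Within the single slide that held coronal fractions 3 to 10, 7 of the 8 passed (12.9% of all probes), with adjusted p from 0.00896 to 0.0213, and Pax7 did not (0.194). In the sagittal series with the slide term 3 of the 8 passed (7.79% of all probes), Irx1, Irx3 and Irx5. Within the slide of sagittal fractions 5 to 10, limma called 0 of the 8 and 0% of all probes, with 5 of the 8 at an unadjusted p under 0.05. All horizontal fractions lay on 1 slide.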

How the data were processed

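Total RNA from 28 brain fractions was measured on one-colour arrays. The authors deposited, for each array, scanner intensities made with Agilent Feature Extraction 10.5.1.1 (array annotation mm9) and, for the series, a table of log2 values. The other deposited columns used are a flag for outlier spots and a flag for signals well above background. The log2 table matched log2 processed intensity minus the 75th percentile of the array within 0.001 for 99.5% of values, after an offset of at most 0.0076. Groups came from the labels (section plane).

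Here, outlier and control spots were left out, spots of 1 probe averaged (55681 probes), and log2 of the processed intensity taken relative to the 75th percentile of each array. A probe counted as well above background where at least 0.5 of its spots were so marked, and no spot was saturated. Probe names came from accessions through the RefSeq gene table, and 27235 probes were named. The fitted test used R 4.3.3 with limma 3.58.1, a spline with 3 degrees of freedom (2 in the horizontal series) and lmFit with eBayes, with the adjusted p over 32364 probes. It was tested on simulated data. The precision is limited by 1 array per position, and p-values measure only the scatter of neighbouring fractions of 1 mouse. The normexp alternative used the median foreground signal, in place of the mean, and an offset of 50. Each gene was named by rule: the 10 genes, lists of patterning and landmark genes, and the 3 symbols with the highest r to each gene well above background on at least 6 arrays. The genes and lists were chosen with earlier results of these data known. Alternatives were another scaling or background correction, the authors' log2 table, other filters, another spline, the slide, and each fraction left out in turn.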

Additional observations from a re-analysis of the deposited data

Results flagged for a closer look

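Each gene's 6 horizontal and 10 sagittal levels were searched for a lowest or highest fraction far from the next one, measured as its gap over the whole range. By measured signal, 6 of 20 such sets had one, where about 1 is given by chance. For 3 of the 6 (Irx2, Irx5 and Pax3) the fraction that stood apart was not well above background. Its level is then only bounded and the gap has no measured size. For Pax2 and Pax5 the fraction that stood apart was the highest, and the lowest was not well above background. Their range is therefore only bounded, and the gap over the range has no measured size either. The count is therefore not read against chance. Neighbouring fractions are ordered positions, not replicates, so a steep profile can produce such a gap.

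Irx1 was lowest in horizontal fraction 1, well above background there, with a gap of 0.791 of its range. The gaps by measured signal in the same fraction were 0.715 for Irx2 and 0.642 for Irx5, from signals not well above background. In sagittal fraction 1, whose array had a 75th percentile of 135, Pax3 was not well above background and its gap by measured signal was 0.469. In sagittal fraction 9, Pax2 and Pax5 were highest, both well above background. Their gaps by measured signal were 0.568 and 0.498, over ranges whose lowest fractions were not well above background.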

How the results depend on the processing

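No paired analysis was possible because each series is 1 mouse and a fraction number is a position along a different axis in each. The coronal count of 7 genes was the same for every fraction left out, 8 of 10 without the filter on dim probes (17330 of 55551 probes called) and 5 with the slide term. The horizontal count of 5 fell to 0 with 1 spline degree of freedom fewer (limma then called 1 of 32364 probes) and ranged from 0 to 5 over the left-out fractions: it was 2 without fraction 1 and 0 without fraction 3 or 4, where limma called 0 of 32364 probes (10053 and 7679 at an unadjusted p under 0.05) and 5 of the 8 genes had an unadjusted p under 0.05, against 6 with all fractions. Scaling to the array median raised the horizontal count over all probes from 5115 to 19258 and the genes' count to 6. The sagittal count of 4 was 0 on 1 slide only and 2 with normexp, which raised the count over all probes from 4767 to 14270, and ranged from 0 to 5 over the left-out fractions, with 0 without fraction 1 (limma then called 0 of 32364 probes, 5955 at an unadjusted p under 0.05) and 2 without fraction 4, 5 or 6. With array-median scaling the sagittal count over all probes was 343 and 4 of the 8 genes passed. These were not the same 4 genes, since Irx1 was lost. These causes were not tested. Single genes kept their side of the threshold in 78 of 80 coronal, 47 of 56 horizontal and 58 of 72 sagittal alternatives other than left-out fractions. Among the rest, 2 coronal, 7 horizontal and 10 sagittal calls were lost, while 2 horizontal and 4 sagittal calls were gained. Over the left-out fractions 17 horizontal and 11 sagittal calls were lost, and 2 were gained in each of these series. The highest fraction was the same in 24 of 30 coronal, 23 of 30 horizontal and 23 of 30 sagittal values under array median, quantile and normexp scaling; Irx1 moved from coronal fraction 4 to 2 under median and normexp. Against the 75th percentile, median scaling moved the median tested probe by 2.53 (sagittal fraction 9) to 4.13 log2 units (coronal fraction 12), and quantile scaling by -0.31 to 0.09. By the flag for a signal significantly above background, 10 genes were detected in each series in place of 8.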
